A study of Arabidopsis thaliana with 12 samples.

Results

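Protein kinases attach phosphate groups to other proteins and protein phosphatases remove them, and together these enzymes set the activity of many signalling proteins in plant cells. ATSIK (AT3G08760) encodes a protein kinase that is known from Arabidopsis as osmotic stress-inducible and as a negative regulator of osmotic stress signalling. AT3G54930 encodes a regulatory subunit of protein phosphatase 2A (PP2A), of the B′ family. PP2A works as a complex of a scaffold, a catalytic and a regulatory subunit, and the regulatory subunit directs the complex to its substrates and to its place in the cell. Proline is an amino acid that plants accumulate under drought and salt.

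ATSIK and AT3G54930 are 2 of the 691 genes that the array read with a probe listed for a single gene, and each had 1 probe (4540 for ATSIK, 364 for AT3G54930). They were chosen from the difference between proline and water in these same samples, so that difference is described here and not tested. The RNA came from wild-type Arabidopsis thaliana of the Wassilevskija ecotype. In one group, 6 samples, plants received proline at 100 mM over 48 h. The other 6 samples are titled as water and described as not treated. No tissue, age or growth condition is stated, and nothing shows that samples of a group came from separate plants, so the p-values given here cover sample-to-sample spread that could be technical in origin. Samples numbered 1 and 2, 3 and 4, and 5 and 6 of a group are called set 1, set 2 and set 3, and the 2 samples of a set are called partners.

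The 6 photosynthesis genes taken as markers of green tissue were known from earlier results to be measured. All were above 0 in all 12 samples, as were 2338 of the 3439 probes, so nothing about the tissue is read from this. Their summed deposited intensity, over all sets and not normalized, ran from 14.3 to 28.3 in the water samples and from 19.0 to 33.7 in the proline samples. They stood between percentiles 4.83 and 99.8 of the probes above 0 in a sample, with SBPASE at the low end. The median intensity of the values above 0 lay between 0.0325 and 0.0963, lowest in set 3, so values of different sets cannot be compared without normalization. Water samples held 153 to 235 probes at 0 and proline samples 352 to 424. ATSIK and AT3G54930 were above 0 in all 12 samples.

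ATSIK transcripts were higher with proline in all 3 sets. The deposited relative intensity of ATSIK in water was 0.414 and 0.362 in set 1, 0.286 and 0.262 in set 2, and 0.119 and 0.126 in set 3. With proline it was 0.740 and 0.814 in set 1, 0.831 and 0.773 in set 2, and 0.364 and 0.372 in set 3. The proline samples of set 3 lay at the level of the water samples of set 1, so the deposited values overlapped across sets, but within each set both proline samples were above both water samples, as for 13.9% of the 2338 probes above 0 in every sample. The group means were 0.262 ± 0.121 in water and 0.649 ± 0.220 in proline (SD, n = 6 each). Taken by sample number, proline over water was 1.79, 2.25, 2.90, 2.95, 3.05 and 2.95 for the numbers 1 to 6. All 6 ratios were above 1, which was also so for 390 of these 2338 probes (16.7%). The gene was chosen on this contrast, and nothing is read from these shares.

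AT3G54930 transcripts were lower with proline in all 3 sets. Its deposited relative intensity in water was 2.33 and 2.33 in set 1, 2.58 and 1.96 in set 2, and 1.45 and 1.41 in set 3. With proline it was 1.40 and 1.40 in set 1, 1.53 and 1.42 in set 2, and 1.12 and 1.08 in set 3. Again the groups overlapped across sets, since the water samples of set 3 lay within the range of the proline samples, and did not overlap within any set, as for 8.98% of the 2338 probes in this direction. The group means were 2.01 ± 0.491 in water and 1.32 ± 0.180 in proline (SD, n = 6 each). Water over proline was 1.67, 1.67, 1.69, 1.38, 1.30 and 1.31 for the numbers 1 to 6. All 6 pairs were lower with proline, which was also so for 269 of the 2338 probes (11.5%). In bulk RNA, fewer cells of a type and less transcript per cell cannot be told apart.

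**Figure D1:**
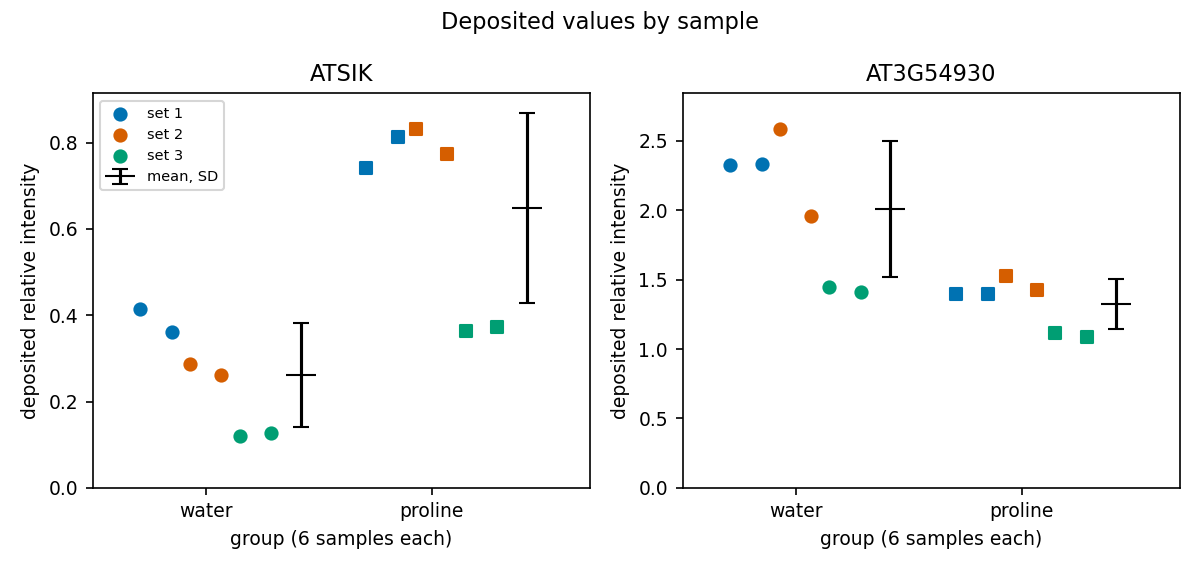
Deposited relative intensity (linear axis from 0) of ATSIK and AT3G54930 in the 6 water and 6 proline samples, coloured by set, with the mean and SD of each group in black. Within each set the proline samples of ATSIK lie above the water samples and those of AT3G54930 below them, and set 3 is low for both genes in both groups.

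Quantile normalization, which gives every array the same distribution of log2 values, removed the overlap between groups for both genes. Normalized ATSIK lay between -2.41 and -1.31 in water and between -1.01 and -0.75 in proline, with means of -1.95 ± 0.44 and -0.91 ± 0.099 (SD, n = 6 each). The difference of 1.04 on the log2 scale is a 2.06-fold higher level with proline. Normalized AT3G54930 lay between 0.92 and 1.30 in water and between -0.12 and 0.56 in proline, with means of 1.15 ± 0.16 and 0.18 ± 0.29 (SD, n = 6 each). This difference of -0.97 is a 1.96-fold lower level. Of the 2337 features with a normalized value in every sample, 240 (10.3%) had groups without overlap, 94 of them higher with proline (4.02%) and 146 lower (6.25%). A direction shared by the means of all 3 sets was seen for 19.2% of these features upwards and 29.7% downwards. Because the genes were chosen on this contrast, nothing is read from their place among those features.

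Neither gene was at the extreme of the array. Of the 3045 features tested, 246 had a larger positive difference than ATSIK and 434 a larger negative one than AT3G54930. Among the 608 tested loci read by single-gene probes these numbers were 55 and 90. These counts order the log2 differences alone and take no account of error.

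The 2 genes differed in which group varied between sets. ATSIK was at nearly the same normalized level in every proline sample, while its water level was highest in set 1, at a mean of -1.42, and was -2.07 in set 2 and -2.36 in set 3. The log2 difference was therefore smallest in set 1, at 0.46 (1.37-fold), with 1.28 in set 2 (2.44-fold) and 1.39 in set 3 (2.62-fold). For AT3G54930 the water means were 1.27, 1.18 and 0.99, and the proline means were spread more widely, at -0.11, 0.12 and 0.53. Set 1 gave a log2 difference of -1.39 (2.62-fold lower), set 2 one of -1.05 (2.08-fold) and set 3 one of -0.46 (1.38-fold). ATSIK thus had its smallest difference in set 1 and AT3G54930 its smallest in set 3.

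Between the partners of a set, the absolute log2 difference was 0.0095 to 0.20 for ATSIK and 0.016 to 0.25 for AT3G54930. Whether partners are repeats of the same material is not stated in the sources used here. A fit over all features that allowed for likeness of partners, as a random block, gave a correlation of 0.59 between them. That fit called 82 features, against 401 in the main test. The SDs, the SEs and the main test count partners as separate samples. If partners are repeats, these errors could be too small and the main count of calls too high.

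**Figure D2:**
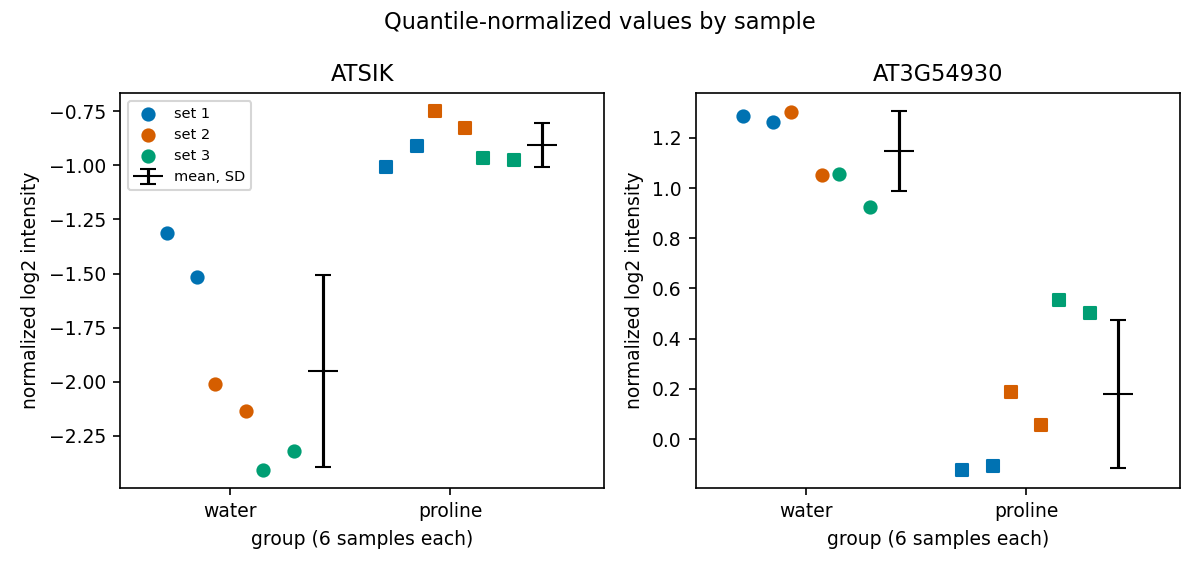
Quantile-normalized log2 intensity of ATSIK and AT3G54930 by sample, coloured by set, with group means and SDs in black. The ATSIK proline samples fall within -1.01 to -0.75 while its water samples range over the sets, and for AT3G54930 the proline samples are the more spread of the groups.

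By rank within its own array, ATSIK stood at percentile 78.7 to 88.3 of the probes above 0 in water and 90.0 to 91.4 in proline. Quantile normalization keeps this rank, so the percentiles repeat the normalized values and are no separate support. They also leave out the probes at 0, which were more numerous with proline. AT3G54930 stood at percentile 97.3 to 97.9 in water and 94.3 to 96.4 in proline. The ranks of the groups did not overlap for either gene, as for 4.02% of the 2338 probes upwards and 6.24% downwards, from which again nothing is read. AT3G54930 is thus one of the brightest probes on the array, and the size of its difference moved with the normalization.

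Across the 28 settings run, the main one included, the log2 difference of ATSIK lay between 0.85 and 1.38. That of AT3G54930 lay between -1.19 and -0.58. Settings that changed only the filter, the error model or the block, or used set means, could not move these differences. Both genes had a value in every sample, so those settings returned 1.04 and -0.97 unchanged. No sign changed, but the genes were chosen on this contrast, so nothing is read from that. The median difference of all tested features was -0.16 with quantile normalization, and it was -0.02 with zeros kept and an offset of 0.01. Relative to that median in each setting, ATSIK ranged from 1.01 to 1.59 and AT3G54930 from -1.03 to -0.48. The smallest differences of AT3G54930 came with arrays centred on their median (-0.64) and with no normalization between arrays (-0.58). In those settings ATSIK had differences of 1.32 and 1.38.

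The 10% of tested features that were brightest, 305 in number, moved with these settings. Its median log2 difference was -0.10 with quantile normalization, 0.21 with arrays centred on the median, 0.27 with no normalization and 0.01 with cyclic loess. Set against this median, a comparison added after the data had been seen, AT3G54930 was lower by a log2 difference of -0.87, -0.84, -0.84 and -0.84 in the same order. Between 38 and 42 of the 305 were lower than AT3G54930 in these settings. AT3G54930 was chosen on its difference, so nothing is read from its place among these features. Whether its brightness accounts for the shift between settings was not tested.

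**Figure D3:**
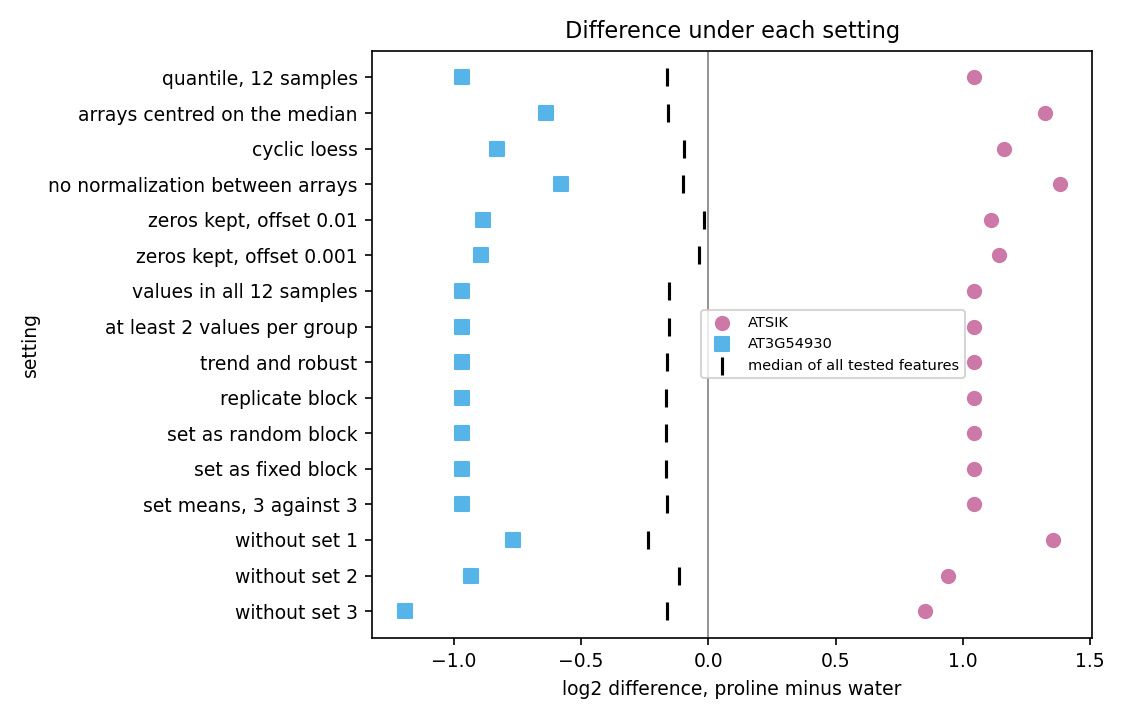
Log2 difference between proline and water (horizontal axis) of ATSIK and AT3G54930 under each processing setting other than the omission of single samples, with the median of all tested features as a black tick. ATSIK lies above 0 and AT3G54930 below 0 in every setting shown, and AT3G54930 is nearest to 0 with no normalization between arrays (-0.58). Settings that change only the filter, the error model or the block, or use set means, cannot move these differences.

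Other subunits and regulators of PP2A were looked up in a list of 27 loci. Apart from AT3G54930, 1 of them, AT5G25510, was read by a single-gene probe. The list places it among the regulatory B′ subunits from general knowledge of the family, since the gene table gives it no description. Its deposited intensity in water was 0.00882 and 0.00839 in set 1, 0 and 0.00807 in set 2, and 0.00324 and 0.00324 in set 3. With proline it was 0.0236 and 0.0357 in set 1, 0.00781 and 0.0163 in set 2, and 0.000512 and 0.000813 in set 3. AT5G25510 was thus higher with proline in set 1 and lower in set 3, and in set 2 water sample 3 was listed at 0.

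AT5G25510 did not pass the test, with a log2 change of 0.42 ± 0.70 (SE, n = 5 and 6, limma adjusted p = 0.726). So 0 of 1 further PP2A locus was called, where 401 of 3045 features were called (13.2%), 168 of them higher with proline (5.52%) and 233 lower (7.65%). With the zero kept, AT5G25510 passed, at 0.85 with an offset of 0.01 (adjusted p = 0.0346) and 2.23 with an offset of 0.001 (adjusted p = 0.0221), where 7.24% and 5.32% of features were called higher. Its adjusted p ran from 0.0221 to 0.988 over its 26 alternatives. AT5G25510 stood among the dimmest probes, between percentiles 0.939 and 20.0 of the probes above 0.

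One further probe, 4238, is listed for 2 genes that are both on the PP2A list, and it names neither. Its intensity in water was 0.0309 at the lowest, 0.0393 at the median and 0.0820 at the highest, and in proline 0.0205, 0.0484 and 0.116. The groups overlapped, and the direction differed between sets, since set 1 gave a log2 difference of 1.33, set 2 one of -0.88 and set 3 one of 0.21. It was not called, at a log2 change of 0.22 ± 0.36 (SE, n = 6 each, limma adjusted p = 0.717, and 0.251 to 0.915 over its 27 alternatives). These probes therefore gave no common direction with AT3G54930, whose difference was below 0 in every set. Whether the AT3G54930 probe also reads related B′ genes was not tested.

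**Figure D4:**
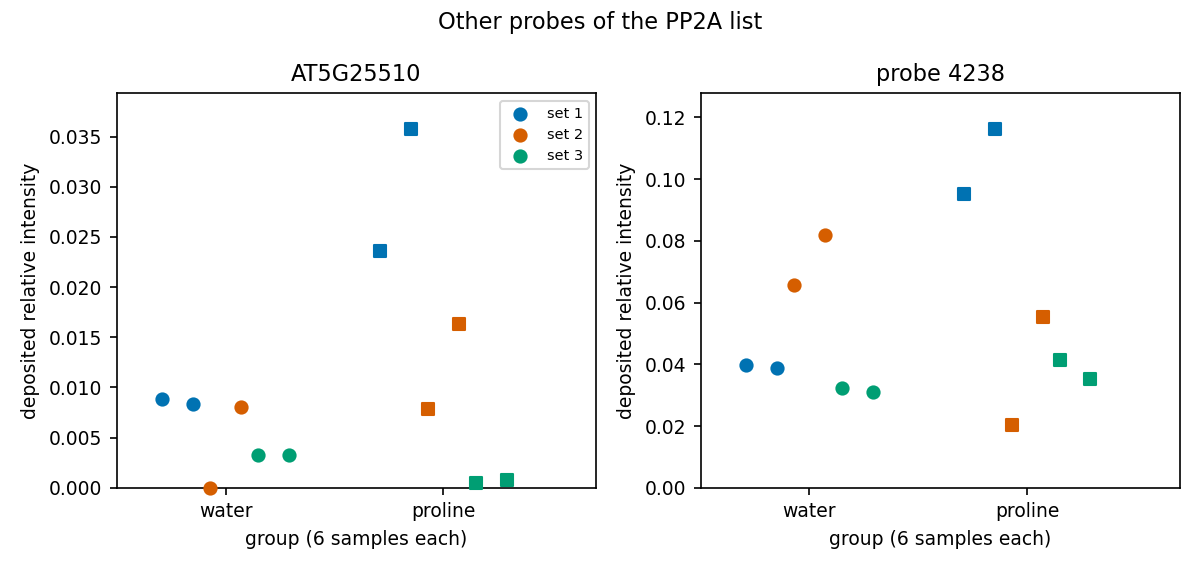
Deposited relative intensity (linear axis from 0) by sample, coloured by set, of AT5G25510 and of probe 4238, which is listed for 2 genes of the PP2A list. Water and proline samples overlap in both panels, and water sample 3 of AT5G25510 is listed at 0.

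By name, no protein kinase or phosphatase outside the PP2A list was found to set beside ATSIK. The name patterns for protein kinases matched 332 genes of the gene table and those for protein phosphatases 54, and none of these was read by a single-gene probe. The table holds symbols and synonyms but no descriptions, so unnamed kinase loci are missed, and ATSIK is not matched by the patterns either. The genes on both sides of ATSIK in the gene table, AT3G08750 and LTP6, and those beside AT3G54930, AT3G54925 and AT3G54940, are on none of the listed probes.

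Likeness of pattern was measured as Pearson's r over the 12 samples between each gene and the other 445 single-gene loci with a value in every sample. The points share arrays and sets, and the values hold the contrast on which the genes were chosen, so r is given as a description. The direction and set order of loci picked by r follow in part from that choice, and nothing is read from them. ATSIK was most like AT5G55580 (r = 0.97), AT4G32060 (0.94) and AT3G44570 (0.94). Those loci had log2 differences of 1.60, 1.48 and 1.15, and each was higher with proline in all 3 sets. AT5G55580 was lowest in the water samples of set 3, at a mean of -3.55, against -2.12 in set 1, the same order of sets as ATSIK in water.

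AT3G54930 was most like AT2G40980 (r = 0.94), AT1G68660 (0.90) and AT1G13370 (0.90). Their log2 differences were -0.96, -1.11 and -1.52, and each was lower with proline in all 3 sets, a direction that the choice by r favours. All 3 loci, like AT3G54930, had their smallest difference in set 3, at -0.28 for AT2G40980, -0.81 for AT1G68660 and -1.15 for AT1G13370. For AT1G13370 the difference was nearly the same in set 2, at -1.17.

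With the group means removed, the mean difference between proline and water no longer enters, but its variation from set to set still does. By this measure other loci came first. ATSIK was then most like AT5G42680 (r = 0.96), AT4G18180 (0.93) and AT1G30700 (0.90). Their changes with proline were not alike: AT5G42680 had 0.94 ± 0.34 (SE, n = 6 each, limma adjusted p = 0.0841), AT1G30700 0.77 ± 0.25 (adjusted p = 0.0609) and AT4G18180 -1.83 ± 0.63 (adjusted p = 0.0723), and none passed. AT4G18180 had its highest level in the water samples of set 1, at a mean of -0.87, and a mean of -4.65 with proline in that set, while its log2 difference in set 3 was -0.23. Its r with ATSIK was -0.21 before the group means were removed. The adjusted p of these 3 loci ran from 0.00491 to 0.442 over their alternatives, and AT5G42680 passed in 6 of 27, AT4G18180 in 4 and AT1G30700 in 8.

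AT3G54930 was then most like AT5G66050 (r = 0.81), HEMA3 (0.81), which encodes a glutamyl-tRNA reductase of tetrapyrrole synthesis, and AT2G40980 (0.77). AT5G66050 and HEMA3 did not pass, with log2 changes of -0.47 ± 0.25 and -0.29 ± 0.20 (SE, n = 6 each, limma adjusted p = 0.222 and 0.340). Neither passed in any of 27 alternatives, where the adjusted p was 0.152 at the lowest. Between ATSIK and AT3G54930 themselves r was -0.73 over the values and 0.33 over the deviations from the group means, so its sign differed between the 2 measures.

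**Figure D5:**
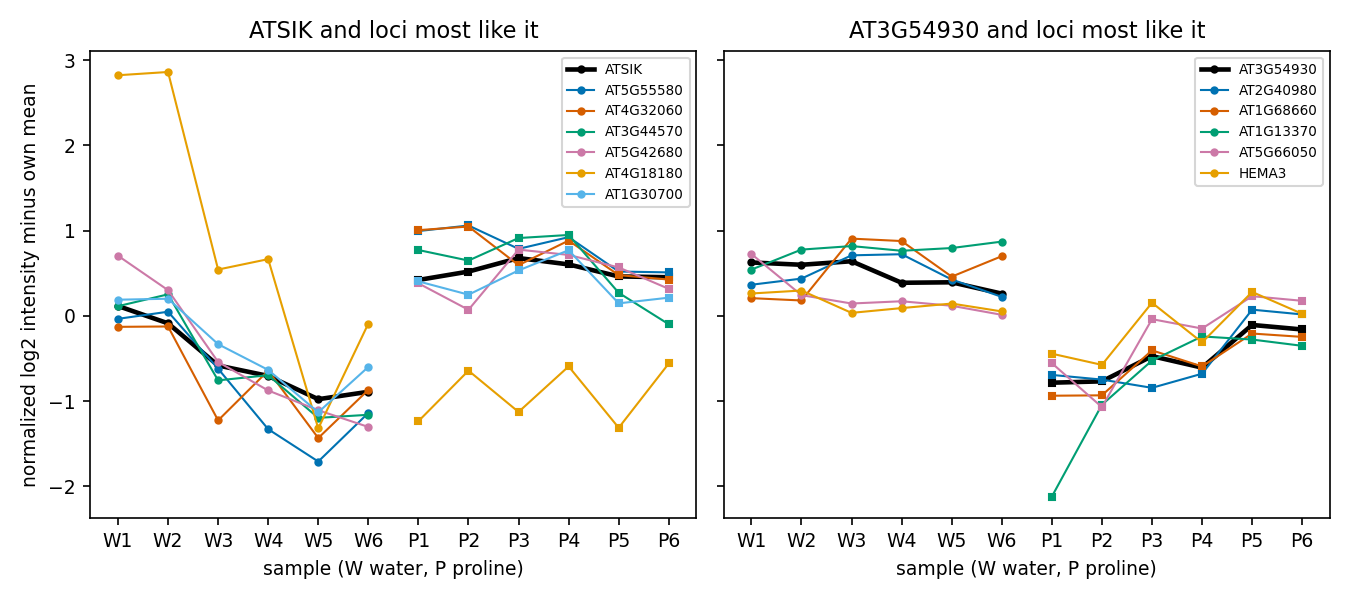
Normalized log2 intensity minus each locus's own mean over the 12 samples (water W1 to W6, proline P1 to P6), for ATSIK and AT3G54930 in black and the loci most like each in colour. ATSIK and its most alike loci are higher in the water samples of set 1 than in those of set 3, and AT4G18180 departs from them by lying below its mean in all proline samples.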

How the data were processed

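The authors deposited 1 table of processed values, 3439 probes in 12 samples, read from the values as relative intensity on a linear scale (0 to 61.4). Scanner, dyes, background correction and scaling are not stated in any label or header. The number of arrays limits the precision. A platform annotation listed 692 probes with 1 gene and 870 with several, and 1877 were unlisted. Names were updated to TAIR10.1, and 2 identifiers had no match. No coordinates are given, since the deposited table names no build.

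Values of 0 (8.43%) were taken as missing. Log2 values were quantile normalized, probes of a locus averaged, and features with at least 4 values per group tested with limma 3.58.1 (R 4.3.3, statmod 1.5.0), no covariate, with Benjamini-Hochberg adjustment over all features and calls at an adjusted p under 0.05. The fit was tested on simulated data. Samples with the same number in both groups deviated together (correlation 0.13 to 0.26 over 2337 features for all 6 numbers), so the numbers were taken as pairs and tried as a block.

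The genes named were ATSIK and AT3G54930, called loci of the lists or the one with the smallest p, and the 3 loci most like each gene by either measure. Members and lists were chosen with earlier results of these data known. Probe 4238 was added after seeing the annotation.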

Additional observations from a re-analysis of the deposited data

Results flagged for a closer look

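Of 30 groups of normalized log2 values checked, 3 held a sample whose gap to its nearest neighbour passed Dixon's 95% limit, a limit that about 1 group in 20 passes by chance. Proline sample 3 lay at -5.64 for probe 4238, with the nearest sample at -4.38. Water sample 1 lay at -3.19 for AT1G13370 (nearest -2.97) and at -1.87 for AT5G66050 (nearest -2.35). No sample of ATSIK, AT3G54930 or AT5G25510 with a normalized value stood apart in this way. Water sample 3 of AT5G25510, listed at 0, had no such value and was not checked.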

How the results depend on the processing

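Taking the larger SD of the groups as the spread (0.44 for ATSIK in water, 0.29 for AT3G54930 in proline), the difference of ATSIK moved by less than it in all 27 alternatives, although it reached 1.38 with no normalization, a move larger than its SD of 0.099 in proline. That of AT3G54930 moved by less in the same alternatives except with arrays centred on the median (-0.64) and no normalization (-0.58). Alternatives that changed only the filter, the error model or the block, or used set means, could not move either difference. They are counted among the 27 but show nothing about it. The SDs taken as the spread also include differences between sets, which makes the limit a wide one. Leaving out 1 sample gave 0.95 to 1.18 for ATSIK and -1.04 to -0.91 for AT3G54930. The r of AT3G54930 with AT2G40980 went from 0.94 to 0.77 with the group means removed. AT5G25510 was 1 call of the PP2A list with either offset for zeros, none in the other 24 alternatives and 0 in each omission of a sample. It could not be fitted with values required in all 12 samples. It changed sign with arrays centred on the median (-0.091), with cyclic loess (-0.078) and without set 1 (-0.38), as did probe 4238 without set 1 (-0.34).

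Against 401 calls in limma, 20 were made with no normalization, 29 without set 2 and 193 without set 3. With the partners of each set within a group as a random block, at a fitted correlation of 0.59, 82 were called. With set as a fixed block shared by both groups, 783 were called. The random block allows for likeness of partners, and the fixed block removes differences between sets that the groups share. With set means as samples 0 were called (472 at an unadjusted p under 0.05). Leaving out 1 sample gave 245 to 480, and water samples 3 and 4 gave 245 and 248. With the replicate number as a block (the pairing) 436 were called, and it changed no call of a gene named here. The cause of these shifts was not tested. Signal over background was not analysed here.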
